A study of Mus musculus with 20 samples.

Results

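The 34 genes described here encode chaperones, folding enzymes, degradation factors and stress sensors of the endoplasmic reticulum (ER), together with genes of the ATF4 arm of the ER stress response. They were taken by symbol from a list, with every probe kept and no filter on measured values. The list itself was chosen with earlier results of these data known. The count table holds 53 probes for them among 30146 probes for 21450 genes. A filter on low counts kept 46 of the 53 probes. It kept the main probe, meaning the probe with the highest mean count, for 31 of the 34 genes, and for 10097 genes of the whole table.

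The livers came from male Balb-C mice aged 10 to 12 weeks, dosed by stomach tube once daily for 7 days with Nafion byproduct 2 (PFESA-BP2), a fluorinated ether sulfonic acid. There were 4 mice in each of 5 groups, which received 0, 0.03, 0.3, 3 or 6 mg/kg per day, and every library came from a different mouse. The protocol gives deionized water as the control vehicle while the control titles carry the name DMSO, and the vehicle is not settled here. Expression was measured with TempO-Seq, in which a pair of detector oligonucleotides is joined on a short stretch of a transcript and the joined pairs are counted by sequencing. Values are counts divided by scaled library size (CPM, counts per 1e+06), and mice are numbered 1 to 4 within a group in accession order.

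The ER is where secreted and membrane proteins are folded, glycosylated and given their disulfide bonds, and hepatocytes hold a large ER because they secrete most plasma proteins. Unfolded protein in the ER activates the sensors IRE1 (gene Ern1), PERK (Eif2ak3) and ATF6, which act through the spliced form of XBP1, through preferential translation of ATF4, and through a cleaved fragment of ATF6 itself. Their target genes raise folding capacity, send misfolded protein back to the cytosol for degradation, and, under the ATF4 branch, change amino acid metabolism and survival.

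The libraries held between 6823518 and 10310931 counts each, and 3 counts, the floor used here, equalled 0.251 to 0.511 CPM, and the member probes took 0.485% to 0.862% of the counts of a library. Mouse 4 at 3 mg/kg and mouse 4 at 6 mg/kg stood apart from their groups. The ratio of chi-square to degrees of freedom between their counts and those of their group mates was 115 to 146 and 97.3 to 109, against 11.7 to 55 and 4.03 to 15.9 among the other mice of those groups. The member counts at 6 mg/kg are given with and without them, as are some of the calls that these libraries decide. All controls, all 0.03 mg/kg mice and mice 1 to 3 at 0.3 mg/kg were in row A of the plate, while mouse 4 at 0.3 mg/kg and all mice at 3 and 6 mg/kg were in row B. The plate row and the higher doses can therefore be separated only through the 0.3 mg/kg group. All 10 hepatocyte markers, such as Alb and Hnf4a, were detected in every group. In bulk liver, fewer cells of a type and less RNA per cell cannot be told apart.

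Promoter sequences are shown for 6 members as examples with and without a motif match. They come from RefSeq on GRCm38.p6, run 5′ to 3′ on the gene's strand from 250 bases before to 50 bases after the start site, and have matched motifs in capitals. A promoter was held for 30 of the 34 genes, with Hyou1, Manf, Derl1 and Atf6 not among them. The ER stress response element (ERSE, CCAAT, then any 9 bases, then CCACG), searched on both strands, is known as a binding site of ATF6 with the factor NF-Y. It was found in 10 of the 30 genes (33.3%), against 37 of all 27025 genes with a promoter of the same length (0.137%). The 10 were Hspa5, Hsp90b1, Dnajc3, Creld2, Calr, Canx, Pdia6, Ero1lb, Syvn1 and Derl3, and Hsp90b1 held 2 matches. The core of the unfolded protein response element (TGACGTGG, both strands) was in 0 of the 30 genes and in 0.714% of all genes with a promoter. The core of the element bound by ATF4 with C/EBP partners (CARE, TGATGNAA, both strands) was in 4 of the 30 (13.3%), Herpud1, Trib3, Asns and Chac1. Of all genes with a promoter, 4.51% held it. None of these motifs overlapped another in the member promoters. A match is a description of letters and not a measured site, and the absence of a match says only that the letters are not in this window.

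The first 4 promoters are those of chaperone genes with an ERSE. Hspa5 (chr2:34771840-34772139, plus strand), Hsp90b1 (chr10:86705395-86705694, minus strand), Creld2 (chr15:88819396-88819695, plus strand) and Canx (chr11:50325624-50325923, minus strand) carry it on either strand, and on the reverse strand it reads CGTGG first. Trib3 (chr2:152344011-152344310, minus strand) is shown for its CARE core, which lies on the reverse strand. P4hb (chr11:120573204-120573503, minus strand) is shown as a gene that rose at 6 mg/kg without a match to any of the 3 motifs.
Hspa5: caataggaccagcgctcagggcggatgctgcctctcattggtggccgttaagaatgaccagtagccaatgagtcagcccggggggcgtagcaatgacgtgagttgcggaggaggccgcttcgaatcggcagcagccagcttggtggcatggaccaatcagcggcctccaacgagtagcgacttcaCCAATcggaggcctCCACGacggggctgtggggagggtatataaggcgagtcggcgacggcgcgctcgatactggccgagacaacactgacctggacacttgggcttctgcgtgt
Hsp90b1: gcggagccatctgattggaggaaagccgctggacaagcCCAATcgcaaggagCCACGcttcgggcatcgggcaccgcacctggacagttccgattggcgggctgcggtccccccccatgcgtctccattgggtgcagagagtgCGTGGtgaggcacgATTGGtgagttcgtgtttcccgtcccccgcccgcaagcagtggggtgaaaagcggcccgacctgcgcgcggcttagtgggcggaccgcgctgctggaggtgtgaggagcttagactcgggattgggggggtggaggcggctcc
Creld2: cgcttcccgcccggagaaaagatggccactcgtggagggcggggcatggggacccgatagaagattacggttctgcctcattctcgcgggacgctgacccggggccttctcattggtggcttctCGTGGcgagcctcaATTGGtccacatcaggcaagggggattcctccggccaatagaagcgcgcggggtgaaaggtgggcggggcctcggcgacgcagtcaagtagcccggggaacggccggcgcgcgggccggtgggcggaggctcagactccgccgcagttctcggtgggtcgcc
Canx: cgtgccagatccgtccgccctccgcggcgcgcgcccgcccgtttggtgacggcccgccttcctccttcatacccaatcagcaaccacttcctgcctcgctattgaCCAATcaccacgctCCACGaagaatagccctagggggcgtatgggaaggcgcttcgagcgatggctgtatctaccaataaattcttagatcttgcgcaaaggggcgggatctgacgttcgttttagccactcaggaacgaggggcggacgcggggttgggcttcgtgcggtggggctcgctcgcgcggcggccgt
Trib3: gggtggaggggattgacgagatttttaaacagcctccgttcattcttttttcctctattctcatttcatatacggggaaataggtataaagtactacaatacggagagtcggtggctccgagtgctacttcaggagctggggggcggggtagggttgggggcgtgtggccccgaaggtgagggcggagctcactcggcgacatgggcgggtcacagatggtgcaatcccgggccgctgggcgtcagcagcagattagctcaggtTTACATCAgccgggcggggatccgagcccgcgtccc
P4hb: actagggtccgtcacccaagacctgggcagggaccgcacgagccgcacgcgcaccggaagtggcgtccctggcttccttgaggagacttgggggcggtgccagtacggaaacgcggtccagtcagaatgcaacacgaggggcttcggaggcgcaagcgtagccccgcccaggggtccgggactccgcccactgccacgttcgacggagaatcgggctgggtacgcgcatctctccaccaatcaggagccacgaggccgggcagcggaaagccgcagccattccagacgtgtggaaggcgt

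**Figure D1:**
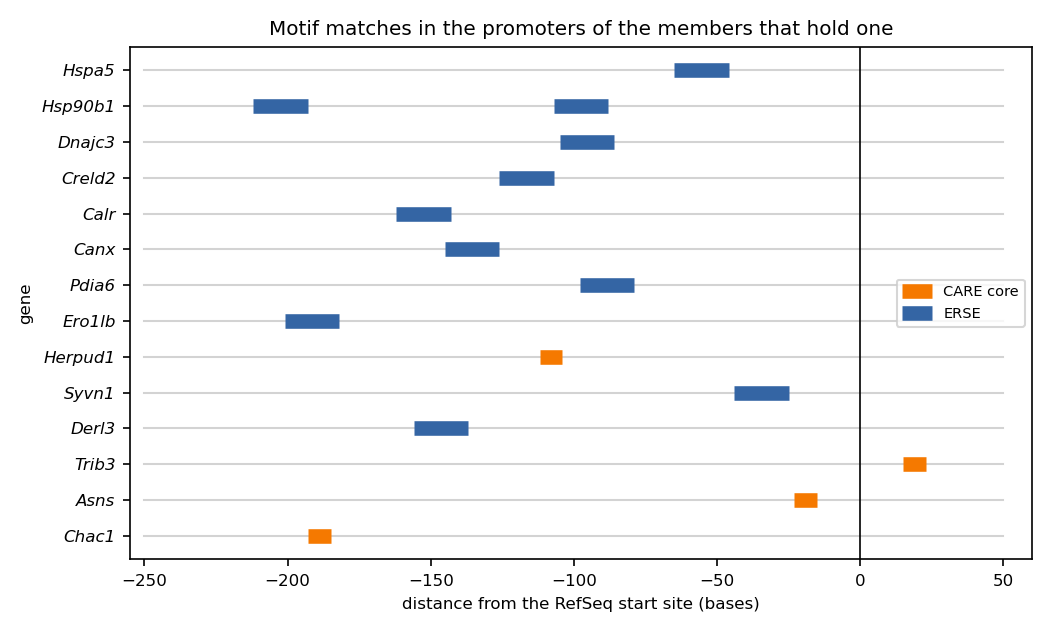
Positions of ERSE and CARE core matches in the promoters of the 14 members that hold 1, with bases from the RefSeq start site on the x axis and 1 gene per line (grey line, the 300-base window). ERSE matches lie before the start site in all 10 genes, and the CARE core of Trib3 begins 15 bases after it.

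At 6 mg/kg, several chaperones and folding enzymes were more abundant than in control livers, while the 3 stress sensors, Ddit3 and Ppp1r15a did not pass the test in either direction. A gene is called where the adjusted p of edgeR's quasi-likelihood test over all probes was under 0.05, and fold changes are on the log2 scale. Of the 31 tested members, 8 rose: the disulfide isomerase P4hb, the retrotranslocation factor Derl1, the ATF4 target Trib3, the chaperones Hyou1, Creld2 and Canx, the isomerase Pdia3 and the translocon subunit Sec61b. Atf4 fell. These counts are 25.8% and 3.23% of the tested members, against a background of 10.9% higher, 9.64% lower and 20.5% in either direction among all 10097 genes. The groups did not overlap for 11 members that were above control (12.2% of all genes) and for 2 that were below (14.7%). The median log2 fold change of the members was 0.25, against -0.02 over all genes. Of the 31, 20 were positive (64.5%, against 48.4% of all genes). DESeq2 called 9 members higher and 2 lower, in a fit that called 19.5% of 16362 probes, 1735 higher and 1461 lower. The comparisons of each dose with control share the same 4 control mice. Without mouse 4 at 3 mg/kg and mouse 4 at 6 mg/kg, 7 members rose and 2 fell (29.0% in either direction), in a fit that called 28.3% of all genes, 13.4% higher and 14.9% lower: P4hb, Derl1, Trib3, Hyou1 and Canx stayed called, Pdia4 and Dnajc3 joined them, Derl2 joined Atf4, and Sec61b, Pdia3 and Creld2 were lost. With plate row in the model, 0 members were called higher and 1 lower, by the main probe of Pdia6, whose other probe was higher; that fit called 3.56% of all genes. That row effect is estimated from the 0.3 mg/kg group, where 1 library is in row B. With 1 library left out at a time, the count higher was 4 without control mouse 1, 5 without control mouse 2, control mouse 4 or mouse 4 at 6 mg/kg, and 12 without mouse 4 at 0.03 mg/kg or at 3 mg/kg. Of all genes, 8.31%, 10.7% and 15.5% were higher without mouse 4 at 6, 0.03 and 3 mg/kg in that order. The fits without control mouse 1, 2 or 4 called 14.8%, 15.5% and 14.7% of all probes in either direction.

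**Figure D2:**
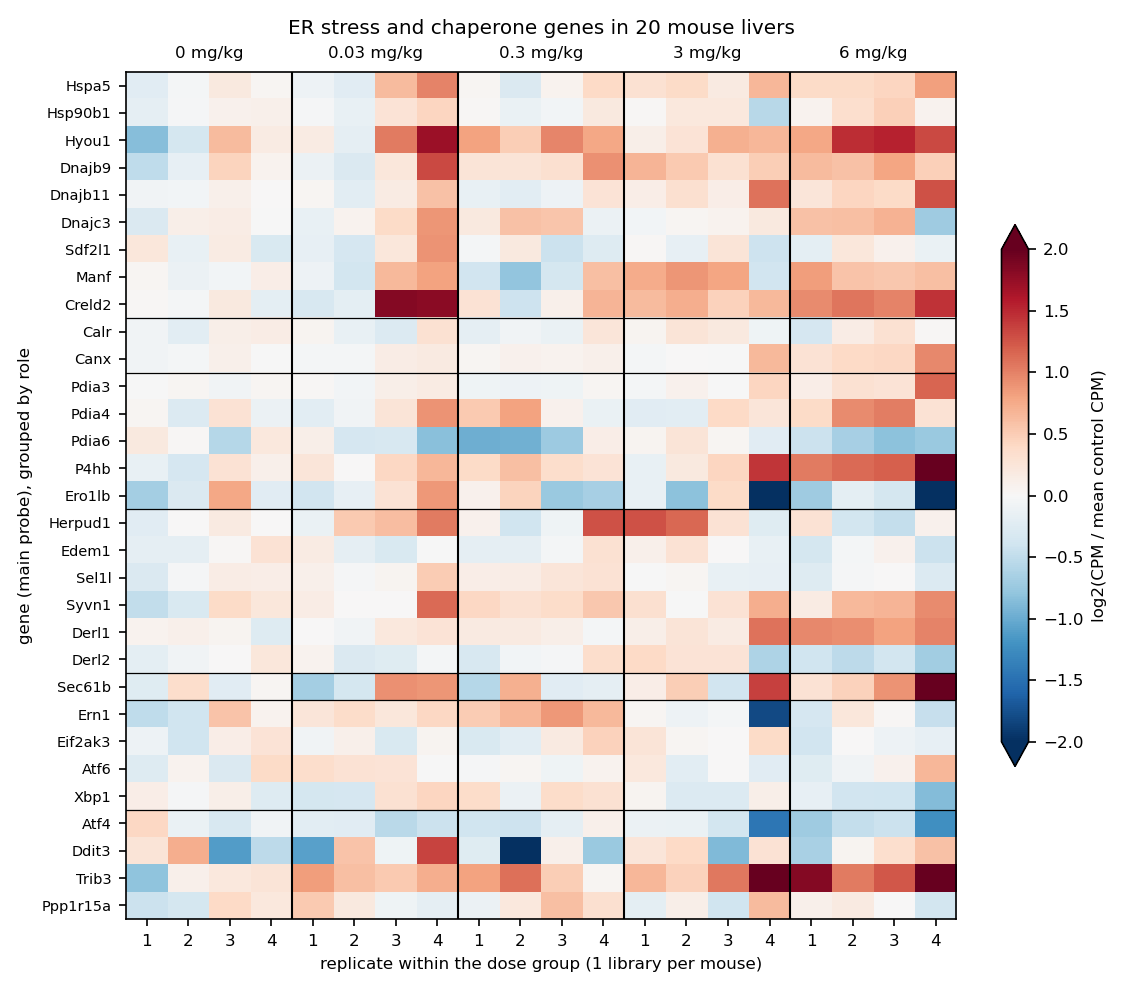
Level of each tested member (1 row per gene, main probe, grouped by role) in each of the 20 livers, as log2 of its CPM over the mean of the 4 controls. Creld2 and Hyou1 are high in mice 3 and 4 at 0.03 mg/kg and in all 4 mice at 6 mg/kg, P4hb and Trib3 are high in all 4 mice at 6 mg/kg, and mouse 4 at 3 mg/kg and at 6 mg/kg differ from their group mates in Ero1lb and P4hb.

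**Figure D3:**
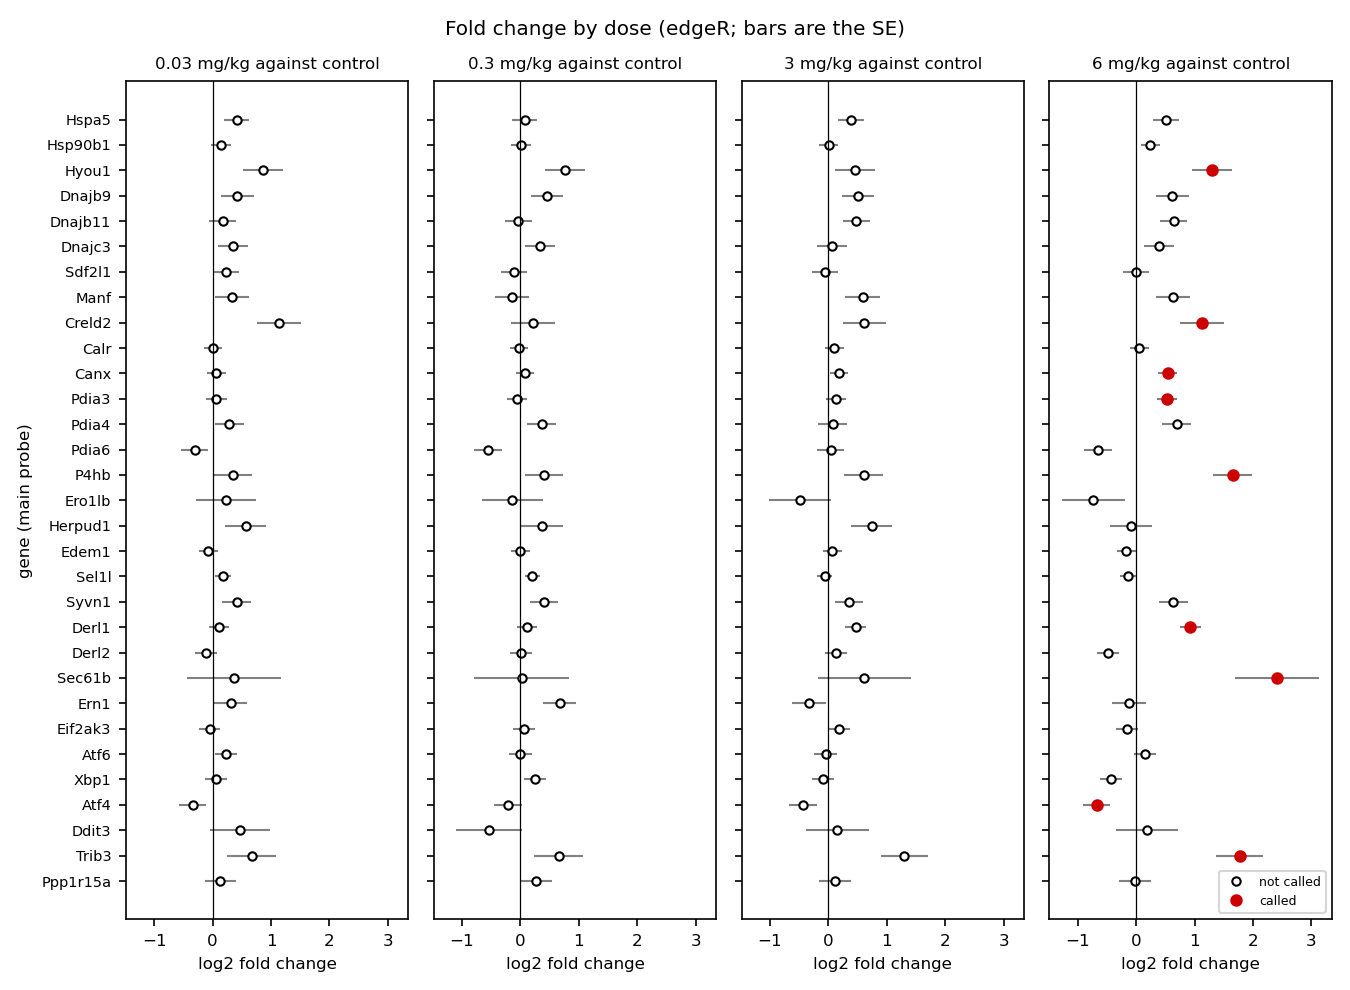
Log2 fold change of each tested member (main probe) against control at each dose, with the SE as a bar; filled red points passed the edgeR test over all probes. Called points appear only in the 6 mg/kg panel, where 8 lie to the right of 0 and Atf4 lies to the left.

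The luminal chaperones were positive in 9 of 9 genes at 6 mg/kg (median log2 0.62), and 2 of the 9, Hyou1 and Creld2, passed the test. Of all genes, 48.4% were positive and 10.9% were called higher. Hspa5 encodes BiP, the HSP70 of the ER lumen, which binds unfolded chains and holds the sensors inactive. Its main probe stood at 598, 681, 802 and 719 CPM in controls and at 908, 917, 938 and 1236 CPM at 6 mg/kg. All 4 treated mice were above the highest control, and the log2 fold change was 0.51 (SE 0.22, edgeR adjusted p = 0.098), short of the threshold. The other Hspa5 probes were at 0.12 and -0.05, and both overlapped with control. Hsp90b1 encodes GRP94, the HSP90 of the ER, and it was at 249.6 to 303 CPM in controls and 296 to 392 CPM at 6 mg/kg, with overlap (log2 0.25, SE 0.17, edgeR adjusted p = 0.307).

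Hyou1 (chr9:44379490-44392369 in the GENCODE annotation of GRCm38, as for the genes below) encodes an ER chaperone of the HSP110 family that exchanges nucleotide on BiP. It was at 5.49, 7.74, 15.3 and 11.2 CPM in controls and 16.9, 27.8, 29.0 and 24.9 CPM at 6 mg/kg. In the doses between, it was at 11.1, 8.75, 20.5 and 32.6 CPM at 0.03 mg/kg, 17.4, 14.0, 19.4 and 16.9 at 0.3 mg/kg and 10.8, 12.1, 16.2 and 15.7 at 3 mg/kg. Only the 6 mg/kg group lay wholly above the controls, and the log2 fold change there was 1.30 (SE 0.34, edgeR adjusted p = 0.0105). The other Hyou1 probe was at 0.63 (SE 0.37, edgeR adjusted p = 0.231).

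Creld2 (chr15:88819646-88826683) encodes a secreted and ER-resident protein with disulfide isomerase activity and is a known marker of ER stress. In controls it was at 58.0, 55.7, 65.3 and 50.1 CPM, and at 6 mg/kg at 109.9, 120.4, 114 and 156 CPM, with no overlap (log2 1.12, SE 0.38, edgeR adjusted p = 0.0419). The 4 mice at 3 mg/kg held 89.1, 94.4, 79.1 and 89.7 CPM, all above the highest control, yet the difference did not pass (log2 0.62, SE 0.37, edgeR adjusted p = 0.529). At 0.03 mg/kg the values were 45.9, 50.1, 205 and 201 CPM, so that mice 3 and 4 exceeded every mouse at 6 mg/kg while mice 1 and 2 lay at control level. The call at 6 mg/kg held in 15 of 29 fits, and without mouse 4 at 6 mg/kg the log2 was 0.98 with an edgeR adjusted p of 0.126. The other Creld2 probe, at 0.141 to 1.37 CPM in controls and so near the floor, also rose (log2 1.85, SE 0.62, edgeR adjusted p = 0.0394).

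The remaining luminal chaperones did not pass at 6 mg/kg. Manf, a secreted factor that binds BiP, was at 263, 235, 246 and 279 CPM in controls and 456, 379.6, 370.2 and 386 CPM at 6 mg/kg, above every control (log2 0.64, SE 0.29, edgeR adjusted p = 0.125). Dnajb9, a J-domain partner of BiP that restrains IRE1, was at 8.86 to 17.3 CPM against 17.6 to 21.8 CPM, also without overlap (log2 0.62, SE 0.28, edgeR adjusted p = 0.114), but its other probe was at -0.20. Dnajb11, the J-domain partner that hands unfolded chains to BiP, was at 83.5 to 94.8 CPM against 104 to 213 CPM without overlap (log2 0.64, SE 0.23, edgeR adjusted p = 0.0557), with mouse 4 the highest. Without the mice that stood apart, Dnajb11 was at 0.37 with an edgeR adjusted p of 0.0636. Hspa5, Manf, Dnajb9 and Dnajb11 were thus above every control in all 4 mice and did not pass over all probes. Dnajc3, which inhibits PERK and assists BiP, was at 22.5, 22.7, 24.1 and 9.10 CPM at 6 mg/kg, where mouse 4 was low, against 12.2 to 16.5 CPM. Its log2 went from 0.39 with all libraries to 0.64 without the 2 mice that stood apart, with an edgeR adjusted p of 0.0178. Sdf2l1, part of a J-protein complex, had a log2 difference of 0.00.

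**Figure D4:**
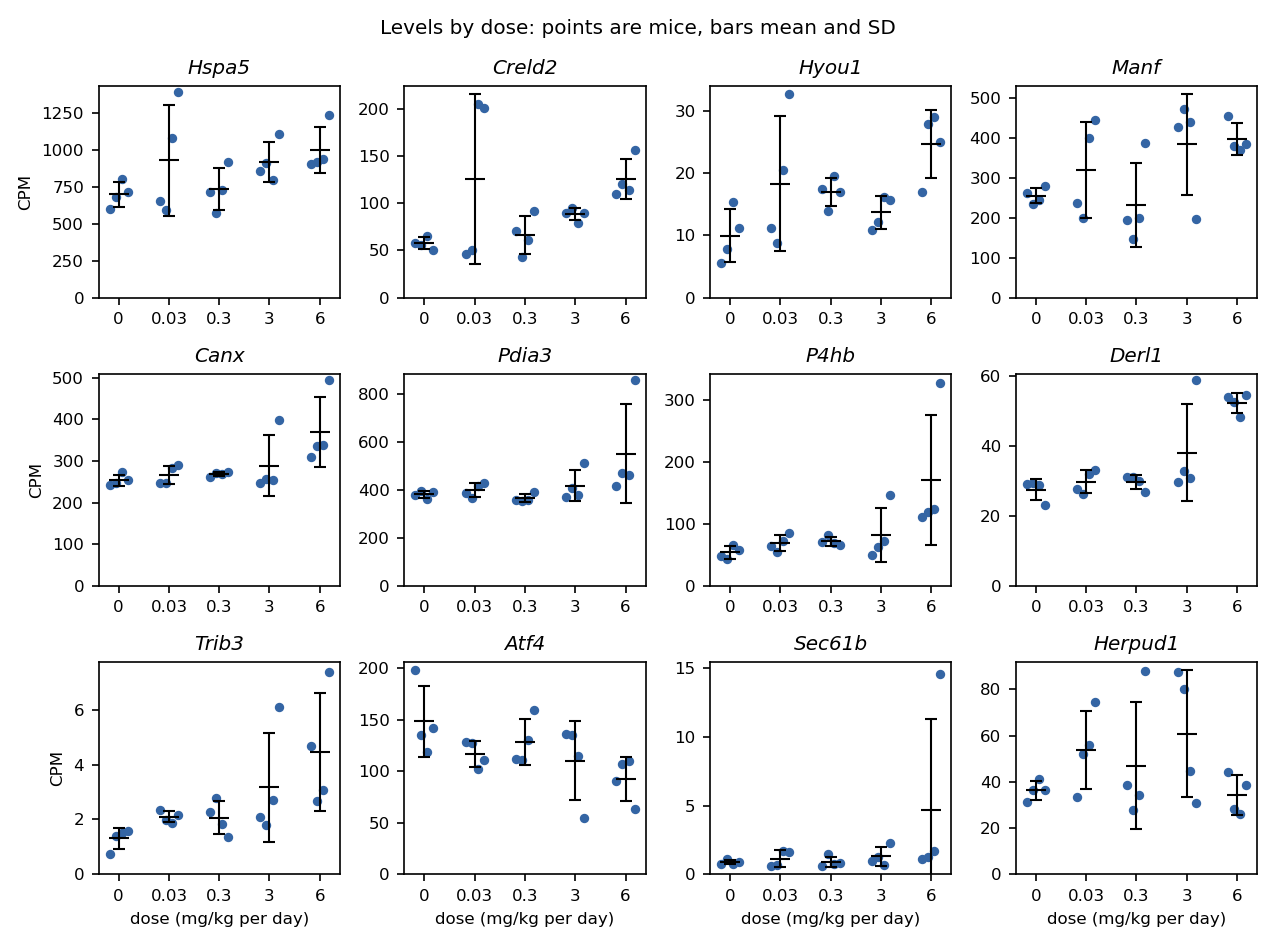
CPM of 12 members by dose (main probe), with 1 point per mouse and the mean and SD as bars; each panel has its own axis, which starts at 0. Derl1 holds 48.1 to 54.5 CPM in the 4 mice at 6 mg/kg and 23.0 to 29.4 CPM in controls, while the Sec61b mean at 6 mg/kg rests on 1 mouse at 14.6 CPM.

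The lectin chaperones hold glycoproteins in the folding cycle. Canx (chr11:50293961-50325673), the membrane-bound calnexin, was at 243, 246, 273 and 254 CPM in controls and 309, 335, 339 and 494 CPM at 6 mg/kg, with all treated mice above control. It rose by 0.54 (SE 0.16, edgeR adjusted p = 0.0205), and without mouse 4 at 6 mg/kg, which held the highest value, the log2 was 0.35 with an adjusted p of 0.108. Without both mice that stood apart it was called. The other Canx probe was at 0.43 (SE 0.17, edgeR adjusted p = 0.0847). Calr, the soluble calreticulin, was at 377 to 480.0 CPM against 345 to 539 CPM (0.06), and its other probe was at -0.01.

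Among the disulfide isomerases, P4hb and Pdia3 rose and Pdia6 gave opposite results by probe. P4hb (chr11:120560298-120573253) encodes protein disulfide isomerase itself, also a subunit of collagen prolyl hydroxylase. It was at 48.9, 43.1, 66.6 and 58.6 CPM in controls, 49.1, 62.2, 73.3 and 147 CPM at 3 mg/kg and 111, 119, 124 and 328 CPM at 6 mg/kg. All mice at 6 mg/kg were above all controls, and mouse 4 was the highest in both treated groups. The log2 fold change at 6 mg/kg was 1.65 (SE 0.34, edgeR adjusted p = 0.00203), and over 29 fits it ranged from 1.10 to 1.85 and was called in 28, the exception being the fit with plate row (1.83, adjusted p = 0.142).

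Pdia3 (chr2:121413775-121438687), the isomerase that works with calnexin and calreticulin, was at 379, 394, 362 and 391 CPM in controls and 416, 470.1, 461 and 857 CPM at 6 mg/kg. The groups did not overlap and the log2 was 0.53 (SE 0.18, edgeR adjusted p = 0.0368). Mouse 4 held far more than its group mates, and without it the log2 was 0.22 with an adjusted p of 0.232. Pdia4, another isomerase, was at 111, 89.9, 133 and 101 CPM in controls and 141, 208, 222 and 132 CPM at 6 mg/kg, with mouse 4 just inside the control range (log2 0.69, SE 0.25, edgeR adjusted p = 0.0531). Ero1lb, the oxidase that recharges isomerases, was at 11.7, 15.5, 32.0 and 16.1 CPM in controls and 11.5, 16.4, 14.8 and 3.00 CPM at 6 mg/kg, overlapping (log2 -0.73, SE 0.53, edgeR adjusted p = 0.345).

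Pdia6, an isomerase that also damps IRE1 and PERK, has 2 tested probes. The main probe was at 380.4, 340.0, 225 and 386 CPM in controls and 248, 211, 188 and 199.7 CPM at 6 mg/kg (log2 -0.65, SE 0.24, edgeR adjusted p = 0.0539). The other was at 6.12, 5.49, 6.79 and 4.93 CPM in controls and 9.61, 8.16, 9.46 and 9.70 CPM at 6 mg/kg, without overlap, and it rose (log2 0.66, SE 0.23, edgeR adjusted p = 0.0473), a call that held in 13 of 27 fits. One probe was lower and the other higher in the same livers, so no direction is given for the gene, and later counts that include Pdia6 refer to its main probe alone.

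Of the 6 tested degradation genes, Derl1 rose and the other 5 main probes did not pass. Derl1 (chr15:57869502-57892448), a Derlin that helps misfolded protein leave the ER, was at 29.0, 29.4, 28.7 and 23.0 CPM in controls and 53.8, 52.5, 48.1 and 54.5 CPM at 6 mg/kg. The mice at 3 mg/kg held 29.7, 32.8, 30.8 and 58.6 CPM, where mouse 4 had the 6 mg/kg level and the other 3 lay just above the highest control. The groups at 6 mg/kg and control were far apart, with 0.93 (SE 0.18, edgeR adjusted p = 0.000924), and the call held in 28 of 29 fits (log2 0.87 to 1.12). With plate row it was 1.12 with an adjusted p of 0.081.

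Derl2 is a close relative of Derl1. Its main probe was at 41.8, 45.3, 47.8 and 56.1 CPM in controls, 63.2, 57.7, 57.4 and 31.2 CPM at 3 mg/kg and 36.4, 33.4, 37.0 and 29.5 CPM at 6 mg/kg, below every control (log2 -0.49, SE 0.19, edgeR adjusted p = 0.069). The other probe was at 9.11, 9.01, 3.99 and 7.01 CPM in controls, 2.49, 3.38, 2.56 and 0.191 CPM at 3 mg/kg and 2.28, 1.95, 0.828 and 1.10 CPM at 6 mg/kg. It fell at 6 mg/kg (log2 -2.24, SE 0.44, edgeR adjusted p = 0.0013) and was the only member probe called at 3 mg/kg (log2 -1.79, SE 0.43, edgeR adjusted p = 0.0381), where 15 of the other fits lost the call. The background of calls over all 14122 probes was 1.49% at 3 mg/kg and 20.3% at 6 mg/kg.

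Syvn1, the ubiquitin ligase HRD1 of the degradation complex, was at 29.8, 34.2, 54.8 and 49.3 CPM in controls and 47.3, 66.0, 67.3 and 80.9 CPM at 6 mg/kg (log2 0.64, SE 0.24, edgeR adjusted p = 0.0688), and mouse 1 lay inside the control range. Its partner Sel1l (-0.13) and Edem1 (-0.17), a lectin that picks glycoproteins for degradation, overlapped with control. Herpud1, which organises the ligase and is strongly induced by ER stress, varied between mice of a group. It held 31.1, 36.4, 41.3 and 36.5 CPM in controls, 33.3, 52.1, 55.7 and 74.5 CPM at 0.03 mg/kg, 38.5, 27.6, 34.2 and 87.8 CPM at 0.3 mg/kg, 87.6, 80.2, 44.5 and 30.7 CPM at 3 mg/kg and 44.4, 28.0, 26.1 and 38.4 CPM at 6 mg/kg. Levels of 80.2 to 87.8 CPM were thus reached by mouse 4 at 0.3 mg/kg and mice 1 and 2 at 3 mg/kg but by no mouse at 6 mg/kg (log2 -0.08, SE 0.35, edgeR adjusted p = 0.888). At 0.03 mg/kg, 3 of the 4 mice were above the highest control. Derl3 was not tested, with 0 to 5 counts in a library.

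Sec61b (chr4:47474658-47483242), a subunit of the channel through which new proteins enter the ER, owed its call to 1 library. Its probe was at 0.749, 1.13, 0.755 and 0.909 CPM in controls and 1.08, 1.22, 1.66 and 14.6 CPM at 6 mg/kg, which were 9, 10, 14 and 146 counts. The log2 fold change was 2.41 (SE 0.72, edgeR adjusted p = 0.0235) although the groups overlapped, and without mouse 4 it was 0.56 with an adjusted p of 0.449.

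The sensors did not pass in either direction at 6 mg/kg. Ern1 (IRE1) was at 9.61 to 20.4 CPM in controls and 9.90 to 16.1 CPM at 6 mg/kg (log2 -0.12, SE 0.29, edgeR adjusted p = 0.801), and its other probe was at 0.57. Eif2ak3 (PERK) was at 13.8 to 22.1 against 14.0 to 18.4 CPM (log2 -0.15, SE 0.18, edgeR adjusted p = 0.574), and Atf6 was at 10.8 to 17.1 against 11.2 to 20.8 CPM (log2 0.16, SE 0.19, edgeR adjusted p = 0.59). Xbp1, whose transcript IRE1 splices, was at 118, 107, 117 and 90.4 CPM in controls and 96.2, 82.6, 81.7 and 59.5 CPM at 6 mg/kg. Mouse 1 overlapped the controls and the other 3 lay below them (log2 -0.44, SE 0.19, edgeR adjusted p = 0.107), with -0.26 for the other tested probe. Whether these probes count both forms of the Xbp1 transcript was not examined, and the spliced form was not analysed here.

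In the ATF4 arm, Trib3 rose, the main probe of Atf4 fell, and Ddit3 and Ppp1r15a did not pass. Trib3 (chr2:152337422-152344032), a pseudokinase induced by ATF4 and CHOP, was at 0.749, 1.41, 1.51 and 1.56 CPM in controls, 2.33, 1.99, 1.88 and 2.17 at 0.03 mg/kg and 2.28, 2.79, 1.84 and 1.34 at 0.3 mg/kg. It was at 2.07, 1.80, 2.73 and 6.10 CPM at 3 mg/kg and at 4.68, 2.68, 3.08 and 7.40 CPM at 6 mg/kg. All mice at 0.03, 3 and 6 mg/kg were above the highest control, and the log2 at 6 mg/kg was 1.77 (SE 0.40, edgeR adjusted p = 0.00358), called in 27 of 28 fits. These are low counts, 6 to 14 in controls and 22 to 74 at 6 mg/kg. The other Trib3 probe, too low to be tested, was at 0.499 to 1.27 CPM in controls and 0.487 to 0.961 CPM at 6 mg/kg.

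Atf4 (chr15:80255184-80257541) encodes the transcription factor of the PERK branch, which is regulated mainly at translation. Its main probe was at 198, 135, 118 and 142 CPM in controls and 90.5, 107, 109.7 and 63.3 CPM at 6 mg/kg, below every control (log2 -0.68, SE 0.24, edgeR adjusted p = 0.047). The call held in 11 of 29 fits and was lost in the fit without mouse 4 at 6 mg/kg. The other probe was at 0.11 (SE 0.19, edgeR adjusted p = 0.715), with values of 62.7, 39.7, 35.6 and 40.0 CPM against 42.1, 42.4, 42.8 and 64.0 CPM. Ddit3 (CHOP, a death-promoting factor of prolonged stress) was at 0.431 to 1.55 against 0.600 to 1.40 CPM (0.19). Ppp1r15a (GADD34, which reverses eIF2 phosphorylation) was at 2.00 to 3.56 against 2.10 to 3.05 CPM (-0.02). Asns, the asparagine synthetase, had 0 to 6 counts in a library and Chac1, which degrades glutathione, 0 to 3, so both were too low to be tested.

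Probes of the same gene did not always move together. At 6 mg/kg, 7 of 15 other tested member probes had the sign of the main probe (46.7%), against 64.6% of 4021 other probes in the table. In Creld2 both probes rose, in Pdia6 they had opposite signs, and in Derl2 and Atf4 1 of the 2 passed. The probe positions within transcripts were not used here, and whether they count different transcript forms was not tested.

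**Figure D5:**
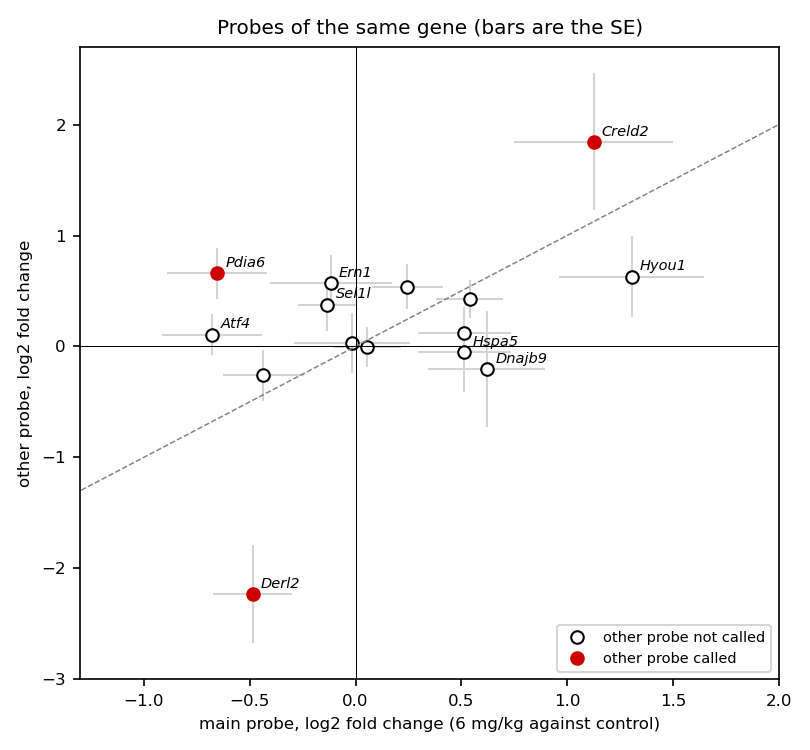
Log2 fold change at 6 mg/kg of the other probes of a member (y axis) against its main probe (x axis), with SE bars, the line of equal change dashed, and red points where the other probe passed the test. Creld2 lies at 1.12 and 1.85, Pdia6 at -0.65 and 0.66, and Derl2 at -0.49 and -2.24.

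By promoter, 9 tested members with an ERSE had a median log2 of 0.39 at 6 mg/kg with 2 higher (Creld2 and Canx) and 0 lower. The 18 tested members with a promoter and no ERSE had a median of -0.01 with 4 higher (P4hb, Pdia3, Sec61b and Trib3) and 1 lower (Atf4). Both sets ranged widely, from -0.73 to 1.12 with an ERSE and from -0.68 to 2.41 without. No test of the difference was made.

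At 0.03 mg/kg, no member passed, as no gene of the table did (0% of 10097 genes in each direction). Of the 31 members, 2 had an unadjusted p under 0.05 by edgeR, Hyou1 (0.87) and Creld2 (1.13), which is 6.45% against 3.25% of all genes. DESeq2 called 0 members, in a fit that called 0.0035% of all probes. The median log2 was 0.23, against -0.02 over all genes, and 26 of 31 were positive (83.9%, against 46.9% of all genes). In the fit without mouse 4 of this group the members' median was 0.04. By mouse, the members' median log2 to the control mean was -0.03, -0.15, 0.22 and 0.59 in mice 1 to 4. The groups did not overlap for 1 member above control, Trib3 (1.69% of all genes), and 0 below (1.72%). The 4 mice differed. Mouse 4 was above the highest control in 23 of 31 members and mouse 3 in 16, against 2 in mouse 1 and 2 in mouse 2. This count was not made over all genes, so whether it is particular to the members was not tested. Hspa5 was at 654, 595, 1085 and 1393 CPM and Manf at 238, 199, 400.2 and 446 CPM, with the same mice high. Mouse 4 was the highest of its group in 21 of 31 members, against 29.5% of all genes. The median coefficient of variation of the members in this group was 24.1%, against 17.6% over all genes, while in controls it was 16.8% against 18.4%. All 8 libraries of this comparison were in plate row A.

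At 0.3 mg/kg again no member passed (0% of all genes). There were 3 unadjusted p under 0.05, for Hyou1 (0.76), Ern1 (0.68) and Pdia6 (-0.55), a share of 9.68% against 8.67% of all genes. DESeq2 called 0 members, in a fit that called 0.24% of all probes. The median log2 was 0.07, and 20 of 31 were positive (64.5%, against 47.3% of all genes). No member was outside the control range in all 4 mice (background 3.17% above and 3.76% below). Mouse 4, the only one in plate row B, was above the other 3 in 18 members, below them in 5 and within their range in 8. Over all genes this library was the highest of its group in 34.9% and the lowest in 30.4%. Manf was at 196, 148, 201 and 387 CPM, and at 196 to 474 CPM at 3 mg/kg in the same row.

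At 3 mg/kg, no member gene passed by its main probe, where 1.54% of all genes did, 1.13% higher and 0.406% lower. The median log2 was 0.13, and 24 of 31 were positive (77.4%, against 49.1% of all genes). DESeq2 called 0 members, in a fit that called 2.48% of all probes. By edgeR, 3 members had an unadjusted p under 0.05 (9.68%, against 12.0% of all genes). These 3 were Trib3 (log2 1.30, SE 0.41, edgeR adjusted p = 0.141), Derl1 (0.47) and Herpud1 (0.74). Dnajb11, Creld2, Derl1 and Trib3 were above control in all 4 mice (3.44% of all genes were), and 0 members were below (4.59%). Mouse 4 was the highest of its group in 13 members and the lowest in 13, and over all genes it was the highest in 34.9% and the lowest in 41.5%. Manf was at 428, 474, 439.5 and 196 CPM, so that 3 mice were above every control and mouse 4 was below every control.

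From 3 to 6 mg/kg, both in row B of the plate, no member passed by edgeR, where 6.96% of all genes did (3.77% higher, 3.19% lower). DESeq2 called 1 higher (P4hb) and 2 lower (the main probes of Derl2 and Pdia6), in a fit that called 10.3% of all probes. By edgeR, 10 members had an unadjusted p under 0.05 (32.3%, against 23.6% of all genes). The groups did not overlap for Hyou1 and Creld2 above (background 5.74%) and for Pdia6 and Eif2ak3 below (5.81%). Leaving out mouse 4 at 3 mg/kg, 6 members rose (P4hb, Derl1, Canx, Pdia3, Trib3 and Sec61b) and 3 were lower (Derl2, Herpud1 and the main probe of Pdia6, whose other probe was called higher). That is 29.0% of the members, where the same fit called 21.7% of all genes. Without mouse 4 of both groups, 4 rose (P4hb, Derl1, Canx and Dnajc3) and Derl2 fell, 16.1% of the members, where that fit called 17.7% of all genes. In that fit P4hb was at 0.96 with an adjusted p of 0.000555 and Derl1 at 0.74 with 0.000488.

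Over the ranks of the 5 doses, 6 members had a positive slope that passed and 0 a negative one, against 10.6%, 7.24% and, in either direction, 17.8% of all genes. Per step of rank, Derl1 rose by 0.22 (SE 0.04, edgeR adjusted p = 0.000498), Trib3 by 0.42 (SE 0.08, edgeR adjusted p = 0.00116) and P4hb by 0.37 (SE 0.07, edgeR adjusted p = 0.00145). Sec61b (0.59), Canx (0.12) and Dnajb11 (0.16) were the others. With plate row in the model, 0 members had a positive slope that passed and 1 a negative one, where 4.21% of all genes passed. Without mouse 4 at 6 mg/kg, P4hb, Derl1 and Trib3 were the 3 left, 9.68% of the members against 13.2% of all genes. Without mouse 4 at 0.03 mg/kg, 10 passed, the 6 and Hyou1, Dnajb9, Syvn1 and Hspa5, 32.3% against 17.4%. The slope and the comparisons with control share their libraries and are not independent.

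Within plate row B, the 0.3 mg/kg group has 1 library, mouse 4, which can be set beside the 6 mg/kg mice without a test. P4hb was at 65.3 CPM in that mouse and 111 to 328 CPM at 6 mg/kg, Derl1 at 26.8 and 48.1 to 54.5 CPM, and Trib3 at 1.34 and 2.68 to 7.40 CPM. These 3 were higher in all mice at 6 mg/kg, as was Creld2 (91.7 against 109.9 to 156 CPM). Hspa5 (922 against 908 to 1236 CPM), and Manf (387 against 370.2 to 456 CPM) lay within the range at 6 mg/kg. Hyou1 was at 16.9 CPM in that mouse and 16.9 to 29.0 CPM at 6 mg/kg, so that it equalled the lowest of them to the digits given. Dnajb9 (23.7 against 17.6 to 21.8 CPM) was higher in that mouse than in every mouse at 6 mg/kg.

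Other genes of the same processes were taken from lists and read by their main probe at 6 mg/kg, where 10.9% of all genes were higher and 9.64% lower. Of 28 tested other ER folding factors, 3 rose, the glycan-binding Mlec (0.91), the isomerase Txndc5 (1.05) and the prolyl hydroxylase P4ha2 (0.97), and 3 fell, the cyclophilin Ppib (-0.41), Tmx4 (-0.86) and Cnpy2 (-0.60). Both shares, 10.7%, were near those of all genes. Of 25 other degradation factors, 3 rose (Ubxn4 0.87, Dnajb12 0.87, Ubxn8 0.73) and 2 fell (Ube2j2 -0.56, Selenos -2.80), and the share that rose, 12.0%, was again near the background. Of 31 genes of the translocon, signal peptidase and oligosaccharyltransferase, 4 rose (12.9%) and 0 fell, with the signal recognition particle receptor Srpr at 1.04, the signal peptidase subunit Spcs2 at 2.64 and the oligosaccharyltransferase subunit Ddost at 1.33. Spcs2 was at 6.25 ± 0.631 CPM (SD, n = 4) in controls and 38.8 ± 38.1 CPM at 6 mg/kg, so its spread was nearly as large as its mean. Without mouse 4 at 6 mg/kg its log2 was 1.67 with an edgeR adjusted p of 0.0959, and without mouse 4 of both groups 1.70 with 4.61e-06. Of 24 genes of ER export and retrieval, 4 rose (16.7%) and 0 fell, among them the coat components Copg1 (0.92), Sar1b (1.06) and Sec24d (1.19).

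Of 12 tested other ATF4 targets, 4 rose (33.3%), among them Vldlr (2.11), Cebpb (0.92) and Cth (0.98), and 2 fell (16.7%), the hormone Fgf21 (-3.68) and the transporter subunit Slc3a2 (-0.74). Fgf21 was at 2.37 ± 2.13 CPM (SD, n = 4) in controls and 0.170 ± 0.151 CPM at 6 mg/kg, the latter below the floor. Of 18 aminoacyl-tRNA synthetases, also ATF4 targets in part, 3 rose (Iars 0.50, Wars 0.65, Gars 0.55), or 16.7%, and 0 fell. Of 18 other stress regulators, 2 rose (Tmbim6 0.48 and Bbc3 1.46) and 1 fell (Eif2ak1 -0.44), shares of 11.1% and 5.56%. The median log2 was 0.13, 0.13, 0.15, 0.23, 0.52, 0.21 and 0.00 over these 7 lists in the order given, against -0.02 over all genes. The 28 related genes named here were called in 27 cases without mouse 4 at 3 and 6 mg/kg, in 19 without mouse 4 at 6 mg/kg alone, and in 2 with plate row in the model. The calls lost without mouse 4 at 6 mg/kg alone were those of Tmx4, Cnpy2, Dnajb12, Selenos, Spcs2, Ddost, Iars, Tmbim6 and Bbc3. The 28 were picked from genes called with all libraries, and the fits share most libraries, so these counts are not separate support. The share kept among all called genes was not counted. At 3 mg/kg none of these 7 lists had a member called by edgeR, and between 0 and 3 members of a list had an unadjusted p under 0.05.

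The summed markers of some liver cell types differed between control and 6 mg/kg, while those of others overlapped. The summed CPM of 10 hepatocyte markers went from 26545 to 30770 in controls to 18093 to 22471 at 6 mg/kg. Of the 10, 1 was called higher and 1 lower. Alb, with 71357 to 97983 counts in controls and 26206 to 62628 at 6 mg/kg, weighs heavily in this sum. Tat went the other way, with 14, 12, 37 and 25 counts in controls and 43, 51, 64 and 59 at 6 mg/kg. Plasma and B cell markers, of which 15 of 16 were in the table, went from 18.2 to 55.9 CPM to 7.80 to 17.9 CPM. Kupffer and macrophage markers (14 of 15) went from 156 to 224 CPM to 103 to 161 CPM. Ms4a1 and Marco were at 0 in all 6 mg/kg libraries, but also near 0 in controls, with 1, 2, 0 and 1 and with 1, 3, 1 and 0 counts. T cell and neutrophil markers (14 of 14) went from 7.27 to 18.3 CPM to 37.6 to 63.7 CPM, in which S100a8 had 7 to 25 counts in a control and 329 to 473 at 6 mg/kg. The other 4 tested markers of that list had a negative log2, Nkg7 fell (-1.32), and the neutrophil gene Elane and the T cell gene Trac were at 0 in both groups. Stellate cell markers went from 202 to 233 CPM to 122 to 174 CPM. Of the 9 tested, Lrat, Reln, Dcn and Rgs5 fell, and Col1a1 rose (2.07, with 15 to 47 counts in controls and 36, 64, 55 and 342 at 6 mg/kg, and 0.98 without mouse 4 at 3 and 6 mg/kg). Endothelial markers went from 222 to 241 CPM to 202 to 277 CPM, and cholangiocyte markers from 52.2 to 64.2 CPM to 42.7 to 67.8 CPM. Epcam was at 0 at 6 mg/kg and had 0, 0, 1 and 0 counts in controls. Pancreatic acinar markers (25 of 27 in the table), whose cells are rich in these chaperones, summed to 5.39 to 16.6 CPM in controls and 7.00 to 11.3 CPM at 6 mg/kg, with 7 of the 25 at 0 at 6 mg/kg. Within that sum Cela1 fell (33 to 46 counts in controls, 4 to 14 at 6 mg/kg) and Pnliprp1 rose (0 or 1 count in controls, 27 to 47 at 6 mg/kg), and these were the 2 tested markers of the list. Pnliprp1 passed the filter on low counts only through the libraries in which it was high, so its test adds nothing to its counts. The part of these cell types in the members' changes was not tested.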

How the data were processed

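Liver RNA of 20 mice was measured with TempO-Seq, and the values the authors deposited are raw counts per probe, 1 column per library. Alignment used Bowtie and the build GRCm38.p5, per the submitters' processing notes, and the Bowtie version is not given in the sources used here. Groups came from the dose labels. Mouse numbers follow accession order and carry no pairing. Libraries held 6823518 to 10310931 counts.

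All 20 libraries were fitted together by group with edgeR 4.0.16 (limma 3.58.1, R 4.3.3): filterByExpr, TMM scaling and the quasi-likelihood test with Benjamini-Hochberg adjustment over all 14122 tested probes. A further fit used a slope over the rank of the 5 doses. CPM used the TMM-scaled library sizes. The code was tested on simulated data. Gene positions and promoters came from reference tables on GRCm38.

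The members and lists were chosen with earlier results of these data known. All 34 members were named whatever their values, and from each related list up to 3 genes per direction with the smallest p among those called at 6 mg/kg. Alternatives were RLE scaling, library totals, a mean of at least 10 CPM, no filter, DESeq2 1.42.0, probes summed per symbol, the 8 libraries of a contrast, a term for plate row, and leaving out 1 library at a time. A fit without the 2 libraries that stood apart was added after seeing the data.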

Additional observations from a re-analysis of the deposited data

Results flagged for a closer look

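In 26 of 230 sets of 4 mice (1 probe in 1 group), the highest or lowest CPM lay farther from the rest than Dixon's 95% critical value for 4 values allows. Chance gives about 1 in 20 sets, which is 11.5 sets here.

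At 6 mg/kg, mouse 4 was the high one for Hspa5 (1236 CPM by the main probe and 332 by Hspa5_74605), Dnajb11 (213), Canx (494), Pdia3 (857), P4hb (328), Sec61b (14.6) and the second Atf4 probe (64.0). The same mouse was the low one for Hspa5_29651 (298 CPM, against 505 to 528 in its group mates) and Dnajc3 (9.10). Probes of Hspa5 thus stood apart in both directions in 1 liver. Mouse 2 of that group was low for Pdia6_31745 (8.16 CPM).

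At 3 mg/kg, mouse 4 was high for Dnajb11 (187 CPM), Canx (398) and Derl1 (58.6), and low for Manf (196) and Ern1 (3.91). At 0.3 mg/kg, mouse 4 was high for Hspa5_74605 (361 CPM), Dnajb9 (23.7), Pdia3 (392) and Pdia6 (366) and low for Hsp90b1_31344 (150.1), while mouse 2 was low for Xbp1 (99.3). At 0.03 mg/kg, mouse 4 was high for Syvn1 (92.5 CPM). Among controls, mouse 4 was high for Dnajb9_68270 (24.5 CPM) and low for Derl1 (23.0), and mouse 1 was high for the second Atf4 probe (62.7).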

How the results depend on the processing

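No paired analysis was possible because the mice were numbered in accession order and the labels give no shared animal, litter or day. No result changed direction among the members called. At 6 mg/kg against control, where 8 members were higher and 1 lower, the lower count was 0 with library totals alone or no filter, 2 with DESeq2, summed probes or without mouse 4 at 3 and 6 mg/kg, and 3 with the 8 libraries alone; the higher count was 0 with plate row. Leaving out 1 library gave 4 to 12 higher and 0 to 3 lower. At 6 against 3 mg/kg, with 0 and 0, the lower count was 1 with RLE scaling, the 10 CPM minimum or without both mice, and 2 with DESeq2, summed probes or plate row; the higher count was 1 with DESeq2 and 4 without both mice. Leaving out 1 library gave 0 to 6 higher and 0 to 3 lower. For the slope, with 6 and 0, the lower count was 1 with DESeq2 or plate row, and the higher count was 0 with plate row and 3 without both mice; leaving out 1 library gave 3 to 10 higher and 0 to 1 lower. The cause was not tested.

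Over all probes, 2867 were called at 6 mg/kg (1634 higher, 1233 lower) and 508 with plate row. With library totals 1894 were higher and 811 lower, and the median log2 moved from 0.01 to 0.15. Leaving out 1 library gave 2120 to 4461. At 6 against 3 mg/kg, 950 were called, 11 with the 8 libraries alone, and 302 to 3105 with 1 library left out. At 3 mg/kg, 211 were called, 124 to 279 with 1 left out and 1 with plate row. For 7 member probes, depth gave too few counts to test.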
